A study of Homo sapiens with 30 samples.

Results

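The genes described here encode the machinery that copies DNA and the enzymes that supply its nucleotides. They are 44 genes, chosen by name from the known parts of the replication machinery, with earlier results of these data known: the factors that license replication origins, the MCM helicase and its activators, the sliding clamp and its loaders, the replicative polymerases and primase, the enzymes that finish the lagging strand, the proteins that guard single-stranded DNA and the fork, chromatin assembly factor 1, and 4 nucleotide enzymes. All 44 were measured, among 12482 genes with a detected probe. Expression was compared in 5 human malignant T-cell lines, of which JURKAT and HD-MAR-2 come from T-cell leukaemia, SUP-T1 comes from lymphoblastic T-cell lymphoma, KARPAS-299 from anaplastic large cell lymphoma and HH from cutaneous T-cell lymphoma. Each line was left untreated or exposed for 24 h to CHOEP at the IC50 of that line. CHOEP is a mixture of cyclophosphamide, doxorubicin, vincristine, prednisone and etoposide. Each of the 10 groups held 3 cultures, which the submitters call biological replicates, so that 30 arrays were analysed. Each disease is stood for by 1 established line, except T-cell leukaemia. The p-values rest on the spread between cultures of the same group, pooled over the 10 groups, and not on a spread between lines of 1 disease. According to the study, the IC50 of CHOEP was the same in SUP-T1 and KARPAS-299 and differed between all other pairs of lines. Differences between lines, other than between SUP-T1 and KARPAS-299, are therefore also differences between doses.

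A cell copies its DNA once per division, in S phase. Origins are licensed beforehand, when the origin recognition complex, CDC6 and CDT1 load the MCM2-7 ring on DNA, and they fire when CDC45 and the GINS complex turn this ring into an active helicase. Polymerase alpha with primase then starts each new strand, polymerases epsilon and delta extend it on the PCNA clamp, which replication factor C loads, and chromatin assembly factor 1 places histones behind the fork. Deoxynucleotides come from ribonucleotide reductase, thymidylate synthase and thymidine kinase. Many of these genes are transcribed at the entry into S phase under E2F factors, and their RNA is abundant in proliferating cells.

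The arrays were Illumina HumanHT-12 v4 BeadChips, which carry 1 colour and on which the brightness of a probe follows the amount of its transcript. Levels are given as log2 signal after background correction and quantile normalisation, so that 1 unit is a doubling, and levels of different genes are not compared because probes differ in brightness. A gene was represented by its brightest probe. CHOEP-treated and untreated cultures were compared within each line by limma, with Benjamini-Hochberg adjustment of p over 22652 probes. A gene was said to fall or rise in a line at an adjusted p under 0.05, and was called there if it also changed at least 2-fold. Between 16003 and 18239 probes were detected per array. All 8 T-lineage markers examined were detected on at least 3 of 6 arrays in JURKAT, SUP-T1 and HD-MAR-2, 6 in HH (without CD28 and LCK) and 2 in KARPAS-299 (CD3D and CD5, with CD2, CD3E, CD3G and LCK on no array), which carries the ALK fusion and was the only line with ALK on at least 3 arrays. Of the B-lineage markers 1 or 2 of 5 were detected on at least 3 arrays of a line, with MS4A1 on 1 array and PAX5 on none in all, and of the myeloid markers 2 to 4 of 6. Each line lay on 1 chip, with treated and untreated cultures at fixed positions, so that position cannot be told apart from treatment, nor chip from line. In whole cultures, fewer cells of a type and less RNA per cell cannot be told apart.

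The replication genes were lower with CHOEP in HD-MAR-2 and SUP-T1, and few of them changed in the other 3 lines. The median of the 44 genes on the untreated HD-MAR-2 arrays was 11.72, 11.78 and 11.73, and with CHOEP 10.84, 10.87 and 10.79. In SUP-T1 it was 11.37, 11.35 and 11.39 untreated and 10.67, 10.60 and 10.59 with CHOEP. In both lines the treated and untreated arrays lay far apart compared with the spread among replicates. The corresponding medians were 10.99, 10.96 and 10.99 untreated and 11.04, 11.05 and 11.06 with CHOEP in KARPAS-299, 11.38, 11.22 and 11.25 and then 11.22, 11.26 and 11.30 in JURKAT, and 10.66, 10.64 and 10.67 and then 10.64, 10.68 and 10.69 in HH. The median log2 fold change of the 44 genes was -0.81 in HD-MAR-2, which is 1.75-fold lower, and -0.71 in SUP-T1, which is 1.64-fold lower. It was -0.10 in HH, -0.05 in JURKAT and 0.04 in KARPAS-299, while the median of all 12482 genes was 0.01 in KARPAS-299 and -0.01 in each other line. Before normalisation the median intensity of all probes was 81.1 to 90.9 on the treated and 100.8 to 103.9 on the untreated HD-MAR-2 arrays, and 85.8 to 110.7 and 97.1 to 111.5 in SUP-T1. With median scaling in place of quantile normalisation, 40 members fell in each of HD-MAR-2 and SUP-T1.

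**Figure D1:**
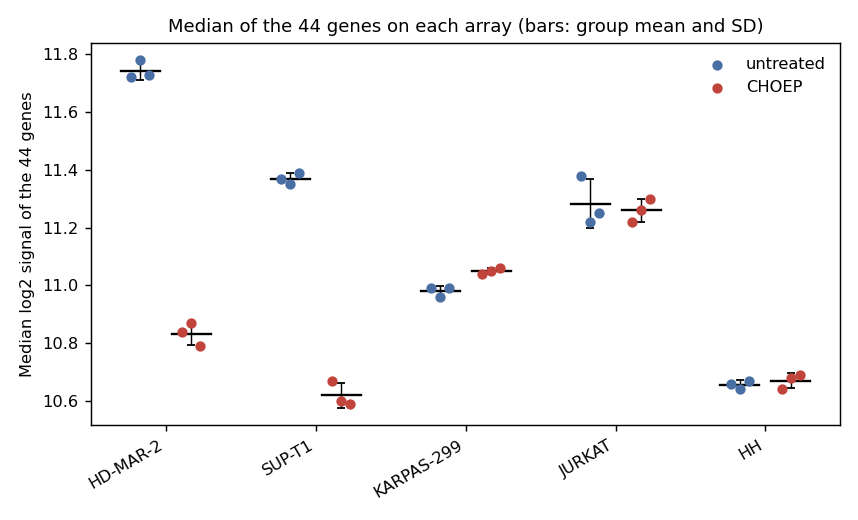
Median log2 signal of the 44 genes (vertical axis) on each of the 30 arrays, by line, with untreated cultures in blue, CHOEP-treated cultures in red, and black bars for the mean and SD of 3 arrays. The treated arrays of HD-MAR-2 (10.79 to 10.87) and SUP-T1 (10.59 to 10.67) lie below the untreated arrays of their line, and those of HH do not.

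By gene, 40 of the 44 fell in HD-MAR-2 and none rose, where 15.8% of all genes fell and 14.9% rose. In SUP-T1 38 fell and none rose, against 13.9% and 12.3% of all genes, and 36 genes fell in both lines. Called at 2-fold were 14 members in HD-MAR-2, where 1.8% of all genes were called lower, and 8 in SUP-T1, where 0.817% were. Of these, CDC6, MCM10, DSCC1, CLSPN, CHAF1A, CHAF1B and RRM2 were called in both lines, CDC6 in HD-MAR-2 on a fitted value below detection, where its fall is bounded only at 1.86-fold or more, and 0.401% of all genes were called lower in 2 or more lines. MCM2, MCM4, RFC2, RFC4, POLE2, POLD3 and TIPIN were called in HD-MAR-2 alone and CDT1 in SUP-T1 alone, a statement on the threshold and not on a difference between the lines. RRM2 and DSCC1 also stand in the study's own list of downregulated genes, which was drawn up on these same arrays and is no independent evidence. All 3 treated arrays read lower than all 3 untreated arrays for 42 members in HD-MAR-2 and for 37 in the SUP-T1 line, against 23.3% and 16.5% of all genes. The count at 2-fold depended on the processing. With the authors' normalised values 9 members were called in HD-MAR-2, only 2 in SUP-T1 and 1 in both, while the counts of members that fell stayed at 40 and 38. With each line fitted alone 38 and 29 members fell. MCM6, GINS1, GINS4, RFC3, POLA2, PRIM1, POLE, POLD1 and RRM1 then no longer passed in SUP-T1 (adjusted p from 0.0592 for POLE to 0.284 for MCM6), nor did GINS3 (adjusted p = 0.069) and RPA2 (adjusted p = 0.0773) in HD-MAR-2.

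In HH 5 members fell, ORC1, MCM2, MCM10, CHAF1A and CHAF1B, none of them 2-fold, and none rose, where 9.64% of all genes fell, 9.89% rose and 0.857% were called lower. All treated HH arrays read below all untreated ones for 17 members, against 22.2% of all genes. No member fell or rose in KARPAS-299, where 4.02% of all genes fell, 2.8% rose and 0.729% were called lower. No member changed in JURKAT either, where 0.024% of all genes fell, 0.12% rose and 0% were called lower. On average over the 5 lines 39 members fell and none rose, against 20.1% of all genes that fell and 17.8% that rose, and ORC6, GINS4, PRIM2, RPA2 and TIMELESS did not pass. The effect of CHOEP differed among lines, by an F test, for 41 members, all but ORC6, GINS1 and PRIM2, where 35.1% of all genes passed. The lowest of the 5 log2 fold changes belonged to HD-MAR-2 for 33 members and to SUP-T1 for the other 11. No member passed in opposite directions in any pair of lines. The count of 5 in HH was not firm, being 3, 2 and 3 without treated replicates 1, 2 and 3 and 3 without untreated replicate 2, and 11 when all probes of a gene were averaged.

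**Figure D2:**
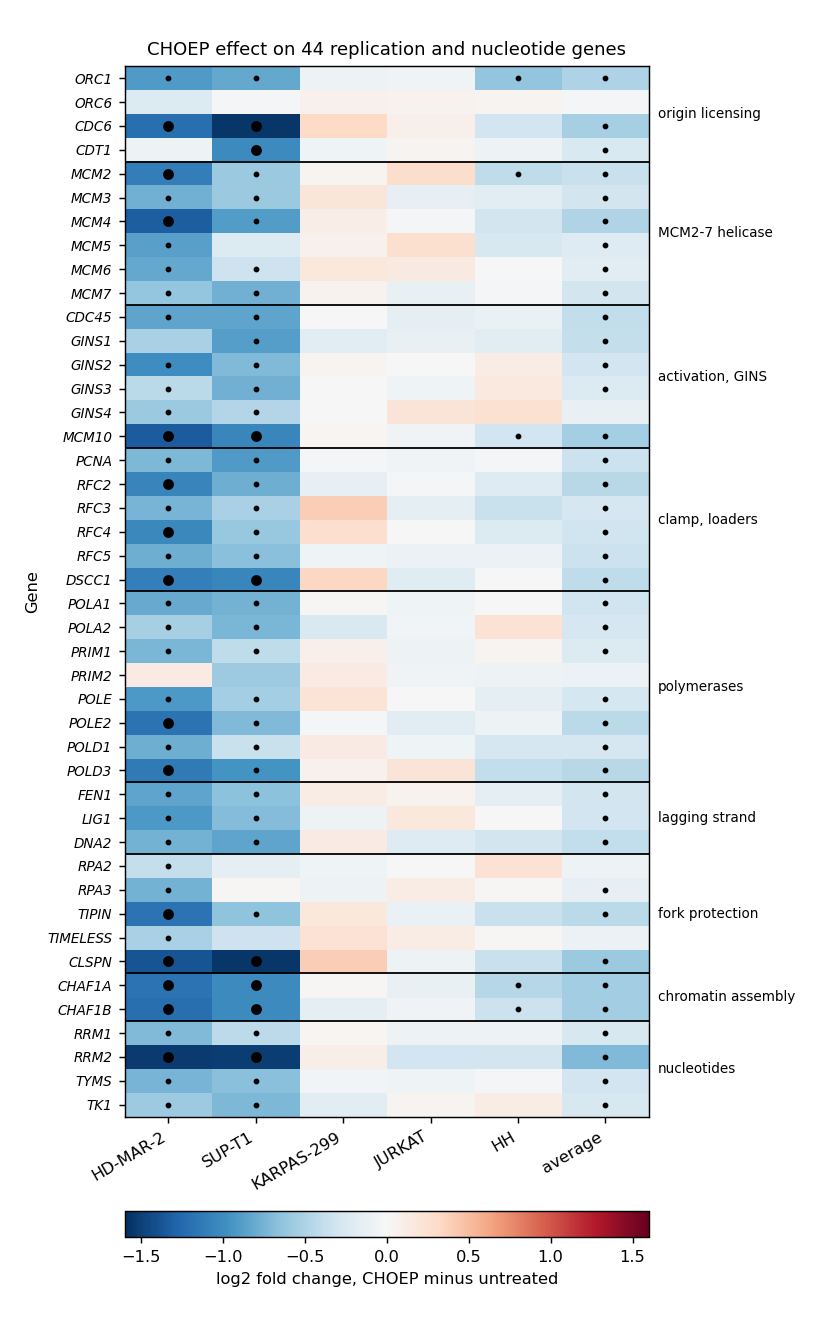
Log2 fold change, CHOEP minus untreated, of each of the 44 genes (rows, by sub-complex) in each line and on average (columns), with lower values in blue and higher in red. Small dots mark an adjusted p under 0.05 and large dots a fall of at least 2-fold as well, which are found only in the HD-MAR-2 and SUP-T1 columns.

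Promoters of 4 of the 7 genes called in both lines are shown, as these genes moved together, and those of MCM10 and CHAF1A are given in words. Sequences from 250 bases before to 50 bases after the transcription start were taken from a prepared set of RefSeq promoters (GRCh38.p14). This set held 36 of the 44 members. It held no promoter of MCM4, MCM5, GINS4, DSCC1, POLD3, DNA2, RPA2 and RPA3, which does not mean that RefSeq lacks these genes. An E2F-type sequence was counted as TTTCCCGC, TTTCGCGC, TTTGCCGC or TTTGGCGC on either strand, and a CCAAT box as CCAAT on either strand. Matches are in capitals.
CDC6: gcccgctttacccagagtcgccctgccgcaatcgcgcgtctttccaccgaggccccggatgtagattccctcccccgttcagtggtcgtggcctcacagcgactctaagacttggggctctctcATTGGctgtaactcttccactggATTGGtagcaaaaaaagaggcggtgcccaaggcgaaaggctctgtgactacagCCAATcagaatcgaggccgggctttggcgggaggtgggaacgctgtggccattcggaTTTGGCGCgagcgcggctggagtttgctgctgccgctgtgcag
CLSPN: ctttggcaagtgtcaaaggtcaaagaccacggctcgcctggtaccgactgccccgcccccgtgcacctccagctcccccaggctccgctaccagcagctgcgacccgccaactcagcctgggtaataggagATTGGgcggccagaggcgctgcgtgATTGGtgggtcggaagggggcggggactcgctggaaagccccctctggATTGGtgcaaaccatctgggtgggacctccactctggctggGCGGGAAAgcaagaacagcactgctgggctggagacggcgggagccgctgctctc
RRM2: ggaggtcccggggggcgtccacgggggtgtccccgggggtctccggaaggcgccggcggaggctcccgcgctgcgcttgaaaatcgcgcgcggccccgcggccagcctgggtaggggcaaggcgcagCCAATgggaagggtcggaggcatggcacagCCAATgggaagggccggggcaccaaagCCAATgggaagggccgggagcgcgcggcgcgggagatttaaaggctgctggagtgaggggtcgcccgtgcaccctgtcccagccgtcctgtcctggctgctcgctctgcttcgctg
CHAF1B: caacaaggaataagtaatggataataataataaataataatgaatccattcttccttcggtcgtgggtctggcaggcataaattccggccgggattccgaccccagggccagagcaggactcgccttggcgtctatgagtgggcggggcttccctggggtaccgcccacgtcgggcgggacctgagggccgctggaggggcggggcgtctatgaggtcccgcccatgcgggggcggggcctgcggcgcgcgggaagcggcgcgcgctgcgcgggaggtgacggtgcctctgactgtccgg
The CDC6 promoter (chr17:40287629-40287928, plus strand) holds 1 E2F-type match just after the start and 3 CCAAT boxes. The CLSPN promoter (chr1:35769929-35770228, minus strand) also holds 1 and 3, while that of RRM2 (chr2:10122489-10122788, plus strand) holds 3 CCAAT boxes alone and that of CHAF1B (chr21:36385142-36385441, plus strand) neither. MCM10 and CHAF1A hold 2 and 4 CCAAT boxes, those of CHAF1A partly overlapping, and no E2F-type match. Of the 36 members 18 (50%) hold an E2F-type match, as do 5.48% of the 9957 tested genes with a promoter and 3.33% of all 27305 promoters. A CCAAT box stands in 21 members (58.3%), in 37.3% of tested genes and in 35.7% of all promoters. The E2F-type match was found in 5 of the 12 members with a promoter that were called in a line and in 13 of the 24 that were not. These are matches of letters to the sequences named above alone, and binding was not measured. TTTGGCGG, which differs from a counted sequence in its last base, was not counted. It is present, on either strand, in the promoters of CDC6, MCM10 and CHAF1A.

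Among the genes that license origins, CDC6, which brings the MCM ring to the origin recognition complex, changed most. Its log2 signal was 6.83, 7.15 and 7.05 on the untreated HD-MAR-2 arrays and 5.53, 5.93 and 5.94 with CHOEP, where it was detected on none of the 3 arrays. In SUP-T1 it was 7.53, 7.49 and 7.51 untreated and 6.03, 6.05 and 5.78 with CHOEP. The groups did not overlap in either line. As CDC6 was below detection in treated HD-MAR-2, its fall there is given as at least 1.86-fold. This bound was set by the lowest detected signal of each array and was not itself tested. The fitted log2 fold change of CDC6 there was -1.21 (adjusted p = 3.04e-07). In SUP-T1 it fell by 1.56 (standard error 0.14, adjusted p = 6.08e-09) on the log2 scale, with 1 of 3 treated arrays detecting it, so that its treated level there lay about the detection limit. Its levels were 5.66, 5.69 and 5.98 untreated against 5.57, 5.34 and 5.50 treated in HH, 6.83, 6.68 and 6.59 against 6.65, 6.81 and 6.89 in JURKAT, and 6.31, 6.55 and 6.14 against 6.73, 6.35 and 6.88 in KARPAS-299. It was detected on no HH array, so that its level there is only known to be low, and no change passed in KARPAS-299 (log2 fold change 0.32, adjusted p = 0.222).

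ORC1, the largest subunit of the origin recognition complex, fell in 3 lines. The untreated and treated levels were 8.84, 8.91 and 8.86 and 7.97, 7.85 and 8.09 in HD-MAR-2, a fall of 0.90 (standard error 0.12, adjusted p = 1.52e-06). SUP-T1 gave 9.43, 9.86 and 9.49 untreated and 8.78, 8.76 and 8.79 treated, a fall of 0.82 (standard error 0.12, adjusted p = 1e-05). In HH the values were 8.66, 8.75 and 8.57 and 8.01, 8.11 and 7.98, a fall of 0.63 (standard error 0.12, adjusted p = 0.000324), the largest of any member in that line. ORC1 thus lay lower in treated cultures of 3 lines with no overlap. CDT1, the partner of CDC6 in loading the MCM ring, was 10.42, 11.48 and 11.10 in untreated and 10.96, 10.92 and 10.89 in treated HD-MAR-2, groups that overlapped (log2 fold change -0.08, adjusted p = 0.827). In SUP-T1 it was 10.49, 11.19 and 11.28 untreated and 9.68, 10.35 and 9.89 treated, a fall of 1.01 (standard error 0.20, adjusted p = 0.000456). The untreated replicates of CDT1 were spread in both lines.

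ORC6, a small subunit of the same complex, had the smallest average change of the licensing genes (-0.02, adjusted p = 0.854), and passed in no line. Its brightest probe read between 14.96 and 15.71 on all arrays, where the highest signal of any probe was 15.86, and ranked 104 by mean signal. The dimmer ORC6 probe, with a mean of 10.63, fell by 0.78 in HD-MAR-2 (adjusted p = 1e-04) and by 1.00 in SUP-T1 (adjusted p = 5.21e-06). The probes of ORC6 therefore disagree, and the gene is counted here by its brightest probe.

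All 6 subunits of the MCM2-7 ring, the helicase that unwinds DNA, fell in HD-MAR-2 (median log2 fold change -0.84) and 5 fell in SUP-T1 (median -0.59). MCM4 changed most, from 13.55, 13.57 and 13.67 to 12.37, 12.17 and 12.31 in HD-MAR-2, a fall of 1.31 (standard error 0.14, adjusted p = 3.74e-08) or 2.49-fold. In SUP-T1 it was 12.41, 12.45 and 12.67 untreated and 11.69, 11.83 and 11.33 treated, a fall of 0.89 (standard error 0.14, adjusted p = 2.05e-05). Neither line showed an overlap. Levels read 12.79, 12.76 and 12.48 untreated against 12.48, 12.39 and 12.28 treated in HH, 12.12, 12.05 and 12.36 against 11.93, 12.16 and 12.39 in JURKAT, and 12.79, 12.53 and 12.81 against 12.97, 12.79 and 12.69 in KARPAS-299. These groups overlapped in KARPAS-299 and JURKAT, and touched in HH (adjusted p = 0.151). MCM2 was 12.00, 11.88 and 12.00 in untreated and 10.78, 10.90 and 10.88 in treated HD-MAR-2, a fall of 1.10 (standard error 0.11, adjusted p = 2.85e-08). It fell by 0.59 (standard error 0.11, adjusted p = 0.000282) in SUP-T1 and by 0.41 (standard error 0.11, adjusted p = 0.0112) in HH. In JURKAT all 3 treated arrays lay above the untreated ones for MCM2, 11.21, 11.15 and 11.32 against 11.11, 10.90 and 10.83, a difference that did not pass (log2 fold change 0.28, adjusted p = 0.592). MCM3, MCM5, MCM6 and MCM7 fell by 0.61 to 0.86 in HD-MAR-2. In SUP-T1 the log2 fold changes were -0.60 for MCM3, -0.34 for MCM6 and -0.77 for MCM7, all of which passed, and -0.22 for MCM5, which did not (adjusted p = 0.18). MCM6, with the smallest average change of the ring (-0.17, adjusted p = 0.016), passed narrowly in SUP-T1 (adjusted p = 0.0398).

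Of the factors that activate the helicase, MCM10, which binds the ring and polymerase alpha, changed most. It read 11.72, 11.73 and 11.64 untreated and 10.41, 10.28 and 10.41 with CHOEP in HD-MAR-2, a fall of 1.34 (standard error 0.11, adjusted p = 3.95e-10) or 2.52-fold. SUP-T1 cultures read 11.44, 11.13 and 11.07 and 10.26, 10.09 and 10.16, a fall of 1.04 (standard error 0.11, adjusted p = 4.87e-08). Treated cultures lay below untreated ones without overlap in both lines. The other lines gave 11.40, 11.23 and 11.36 untreated against 10.96, 11.07 and 11.03 treated in HH, 11.77, 11.85 and 11.82 against 11.55, 11.97 and 11.76 in JURKAT, and 11.07, 10.92 and 10.98 against 10.99, 10.96 and 11.14 in KARPAS-299. In HH it fell by 0.31 (standard error 0.11, adjusted p = 0.045), a call close to the threshold, and its groups overlapped in KARPAS-299 and JURKAT. CDC45, a subunit of the active helicase, fell by 0.85 (standard error 0.10, adjusted p = 1.57e-07) in HD-MAR-2 and by 0.85 (standard error 0.10, adjusted p = 2.52e-07) in SUP-T1. The GINS genes, whose products complete that helicase, fell together in SUP-T1, by 0.89 for GINS1, 0.71 for GINS2, 0.77 for GINS3 and 0.46 for GINS4. GINS1 was detected on only 1 of 3 treated SUP-T1 arrays, so that the size of its fall there is uncertain (standard error 0.26). With SUP-T1 fitted alone GINS1 (adjusted p = 0.0775) and GINS4 (adjusted p = 0.136) did not pass, nor did GINS4 with median scaling restricted to probes detected on every array (adjusted p = 0.0597). In HD-MAR-2 GINS2, GINS3 and GINS4 fell, by 1.00, 0.43 and 0.59, and GINS1, detected on 22 of 30 arrays, did not pass (log2 fold change -0.52, standard error 0.26, adjusted p = 0.155). GINS4 had the smallest average change of the group (-0.12, adjusted p = 0.142), as its log2 fold changes of 0.21 in JURKAT and 0.24 in HH, neither of which passed, were above 0.

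The clamp and its loaders all fell in both lines, with medians of -0.73 in SUP-T1 and -0.91 in HD-MAR-2. RFC2, a subunit of the replication factor C loader, changed most on average. Its log2 signal was 9.55, 9.51 and 8.99 in untreated and 8.40, 8.46 and 8.02 in treated HD-MAR-2, a fall of 1.06 (standard error 0.15, adjusted p = 3.85e-06). In SUP-T1 it was 9.61, 9.38 and 9.44 and 8.69, 8.75 and 8.62, a fall of 0.79 (standard error 0.15, adjusted p = 0.00023). No treated array reached an untreated one in these lines. Elsewhere it was 9.50, 9.56 and 9.69 untreated against 9.31, 9.54 and 9.27 treated in HH, 10.16, 10.17 and 9.79 against 10.13, 10.14 and 9.77 in JURKAT, and 10.26, 10.36 and 10.11 against 10.03, 10.07 and 10.22 in KARPAS-299. DSCC1, part of an alternative clamp loader that acts in sister chromatid cohesion, was 11.97, 11.95 and 11.82 untreated and 10.92, 10.85 and 10.69 treated in HD-MAR-2, a fall of 1.10 (standard error 0.13, adjusted p = 2.72e-07). In SUP-T1 DSCC1 was 11.67, 11.18 and 11.36 and 10.39, 10.26 and 10.41, a fall of 1.05 (standard error 0.13, adjusted p = 8.98e-07). These groups stood apart in both lines. For DSCC1 the arrays read 10.23, 10.37 and 10.25 untreated against 10.23, 10.29 and 10.31 treated in HH, 10.98, 11.12 and 11.11 against 10.89, 10.86 and 10.87 in JURKAT, and 10.41, 9.82 and 9.89 against 10.52, 10.29 and 10.30 in KARPAS-299. The log2 fold change of DSCC1 was 0.33 in KARPAS-299 (adjusted p = 0.156), where the untreated arrays were spread. PCNA, the clamp itself, fell by 0.72 (standard error 0.13, adjusted p = 0.000123) in HD-MAR-2 and by 0.90 (standard error 0.13, adjusted p = 9.21e-06) in SUP-T1. RFC4 was called in HD-MAR-2 (fall of 1.03 (standard error 0.12, adjusted p = 3.13e-07)) and fell by 0.61 (standard error 0.12, adjusted p = 0.000478) in SUP-T1. RFC5 fell by 0.78 and 0.67, and RFC3, the loader subunit with the smallest average change (-0.27), by 0.74 and 0.52.

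Of the 8 polymerase and primase genes, 7 fell in each of HD-MAR-2 (median -0.79) and SUP-T1 (median -0.64). POLD3, an accessory subunit of polymerase delta, had the largest average fall. It was 9.81, 9.75 and 9.74 untreated and 8.65, 8.59 and 8.66 treated in HD-MAR-2, a fall of 1.13 (standard error 0.15, adjusted p = 1.42e-06). In SUP-T1 POLD3 was 8.97, 9.33 and 8.92 and 8.16, 8.12 and 8.08, a fall of 0.95 (standard error 0.15, adjusted p = 2.35e-05). There was no overlap in these lines, although a second, much dimmer POLD3 probe did not pass in HD-MAR-2 (adjusted p = 0.139). Signals of 8.95, 8.93 and 8.57 untreated against 8.45, 8.42 and 8.40 treated in HH, 8.60, 8.66 and 8.83 against 8.81, 8.62 and 9.29 in JURKAT, and 7.35, 7.43 and 7.72 against 7.43, 7.84 and 7.43 in KARPAS-299. POLE2, the second subunit of polymerase epsilon, fell from 11.89, 11.90 and 11.83 to 10.86, 10.54 and 10.69 in HD-MAR-2, by 1.18 (standard error 0.09, adjusted p = 8.92e-11) or 2.26-fold, and in SUP-T1 by 0.71 (standard error 0.09, adjusted p = 8.52e-07). Its catalytic partner POLE fell by 0.92 and 0.54, and POLD1, the catalytic subunit of polymerase delta, by 0.79 and 0.35. POLA1 and POLA2, which form polymerase alpha with the primase, fell by 0.80 and 0.54 in HD-MAR-2 and by 0.76 and 0.73 in SUP-T1. PRIM1, the catalytic primase subunit, fell by 0.73 (standard error 0.09, adjusted p = 6.82e-07) and by 0.41 (standard error 0.09, adjusted p = 0.00133). PRIM2, the large primase subunit, passed in no line. Its untreated arrays read 5.75, 6.95 and 6.72 in HD-MAR-2 and 6.81, 7.44 and 7.95 in SUP-T1, and its treated arrays 6.28, 6.82 and 6.69 and 6.46, 7.16 and 6.85, with log2 fold changes of 0.13 (adjusted p = 0.788) and -0.58 (adjusted p = 0.13) and a standard error of 0.27.

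The 3 genes that finish the lagging strand fell in both lines and were called in neither. DNA2, a nuclease and helicase that trims flaps, was 9.0, 9.32 and 9.38 untreated and 8.58, 8.45 and 8.40 treated in HD-MAR-2, a fall of 0.76 (standard error 0.11, adjusted p = 9.74e-06). It was 8.88, 8.89 and 9.10 and 8.0, 8.29 and 8.05 in SUP-T1, a fall of 0.84 (standard error 0.11, adjusted p = 3.44e-06). DNA2 did not overlap between groups in either. Its log2 signal was 9.0, 9.02 and 9.10 untreated against 8.77, 8.68 and 8.77 treated in HH, 9.29, 9.02 and 9.29 against 8.96, 8.99 and 9.01 in JURKAT, and 8.12, 8.01 and 8.28 against 8.42, 8.23 and 8.18 in KARPAS-299. Treated arrays also lay below untreated ones in JURKAT and HH, without passing (adjusted p = 0.82 and 0.067). FEN1, the flap endonuclease, fell by 0.84 in HD-MAR-2 and also, by 0.66, in SUP-T1, and LIG1, which joins the fragments, by 0.92 and 0.69.

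Of the proteins of single-stranded DNA and the fork, 5 of 5 fell in HD-MAR-2 (median -0.75) and 2 of 5 in SUP-T1 (median -0.33). CLSPN, which encodes claspin, the adaptor between a stalled fork and the checkpoint kinase CHEK1, changed most. It was 7.40, 7.51 and 7.41 untreated and 6.11, 6.13 and 5.92 treated in HD-MAR-2, a fall of 1.38 (standard error 0.24, adjusted p = 8.4e-05) or 2.60-fold. In SUP-T1 CLSPN was 8.18, 7.36 and 8.14 and 6.29, 6.69 and 6.04, a fall of 1.55 (standard error 0.24, adjusted p = 2.49e-05) or 2.94-fold. The treated arrays lay below all untreated arrays of both lines, close to the detection limit, with 1 of 3 detected in HD-MAR-2 and 2 of 3 in SUP-T1. Levels of CLSPN were 7.72, 7.25 and 7.5 untreated against 6.76, 7.37 and 7.27 treated in HH, 7.56, 8.27 and 8.0 against 7.68, 8.0 and 7.91 in JURKAT, and 7.78, 6.61 and 7.36 against 7.64, 7.49 and 7.79 in KARPAS-299. The untreated replicates of KARPAS-299 differed by over 1 log2 unit, and no change passed there (log2 fold change 0.39, adjusted p = 0.453). TIPIN, the partner of TIMELESS in the fork protection complex, was 10.46, 10.04 and 9.87 untreated and 8.91, 8.99 and 8.91 treated in HD-MAR-2, a fall of 1.19 (standard error 0.13, adjusted p = 1.33e-07), and fell by 0.65 (standard error 0.13, adjusted p = 0.00062) in SUP-T1. TIMELESS fell by 0.52 (standard error 0.14, adjusted p = 0.00545) in HD-MAR-2, and its log2 fold change in SUP-T1 was -0.33 (adjusted p = 0.082). The small replication protein A subunits RPA2 and RPA3, which coat single strands, fell by 0.38 and 0.75 in HD-MAR-2. In SUP-T1 they stood at -0.16 (adjusted p = 0.351) and 0.02 (adjusted p = 0.915).

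Chromatin assembly factor 1, which deposits histones H3 and H4 on new DNA, had both of its genes here called in HD-MAR-2 and SUP-T1. The calls in SUP-T1 lay just past the threshold, at 2.03-fold for CHAF1A and 2.02-fold for CHAF1B. With the authors' values, and without background correction, 1 of all 44 members was called in both lines, so that at least 1 of these calls was lost. CHAF1A, its large subunit, was 9.58, 9.42 and 9.32 untreated and 8.23, 8.23 and 8.31 treated in HD-MAR-2, a fall of 1.18 (standard error 0.11, adjusted p = 1.21e-08). In SUP-T1 CHAF1A was 9.97, 9.68 and 9.70 and 8.73, 8.66 and 8.90, a fall of 1.02 (standard error 0.11, adjusted p = 2.18e-07). The arrays of the other lines read 7.91, 7.81 and 7.84 untreated against 7.63, 7.39 and 7.17 treated in HH, 8.52, 8.58 and 8.63 against 8.59, 8.43 and 8.35 in JURKAT, and 8.56, 8.78 and 8.78 against 8.84, 8.67 and 8.67 in KARPAS-299. CHAF1A fell in HH as well, by 0.45 (standard error 0.11, adjusted p = 0.00574), without overlap between groups. CHAF1B, the middle subunit, read 10.66, 10.94 and 10.96 and 9.65, 9.77 and 9.50 in HD-MAR-2, a fall of 1.21 (standard error 0.10, adjusted p = 1.06e-09). It read 10.79, 10.88 and 11.03 and 9.96, 9.92 and 9.77 in SUP-T1, a fall of 1.02 (standard error 0.10, adjusted p = 3.25e-08). In HH CHAF1B fell by 0.34 (standard error 0.10, adjusted p = 0.0179). For CHAF1B the signals were 10.33, 10.47 and 10.42 untreated against 10.05, 10.06 and 10.08 treated in HH, 10.53, 10.43 and 10.43 against 10.37, 10.56 and 10.31 in JURKAT, and 10.24, 10.44 and 10.26 against 10.10, 10.17 and 10.19 in KARPAS-299. Both subunits thus fell in the same 3 lines. In KARPAS-299 the treated CHAF1B arrays lay just below the untreated ones, a difference that did not pass (adjusted p = 0.49).

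RRM2, the regulated small subunit of ribonucleotide reductase, which makes deoxynucleotides, had the largest average fall of all 44 genes (-0.71, standard error 0.06, adjusted p = 9.32e-10). Its untreated and treated levels were 11.92, 11.81 and 11.62 and 10.23, 10.03 and 10.48 in HD-MAR-2, a fall of 1.54 (standard error 0.13, adjusted p = 2.21e-09) or 2.90-fold. In SUP-T1 RRM2 was 11.30, 10.86 and 11.43 and 9.71, 9.73 and 9.60, a fall of 1.52 (standard error 0.13, adjusted p = 3.93e-09) or 2.87-fold. The groups were separated by more than a log2 unit in each line. In the remaining lines RRM2 was 12.07, 12.12 and 11.91 untreated against 11.82, 11.65 and 11.75 treated in HH, 11.96, 11.78 and 11.81 against 11.53, 11.60 and 11.51 in JURKAT, and 10.78, 10.46 and 10.41 against 10.72, 10.48 and 10.76 in KARPAS-299. Treated arrays of JURKAT and HH lay below the untreated ones without passing (log2 fold changes -0.30 and -0.29, adjusted p = 0.7 and 0.144). RRM1, the large subunit of the same enzyme, fell less, by 0.71 (standard error 0.10, adjusted p = 9.28e-06) in HD-MAR-2 and by 0.41 (standard error 0.10, adjusted p = 0.00464) in SUP-T1, and had the smallest average change of the nucleotide enzymes. TYMS, thymidylate synthase, fell by 0.75 and 0.66. TK1, the S-phase thymidine kinase, fell by 0.58 and 0.72.

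**Figure D3:**
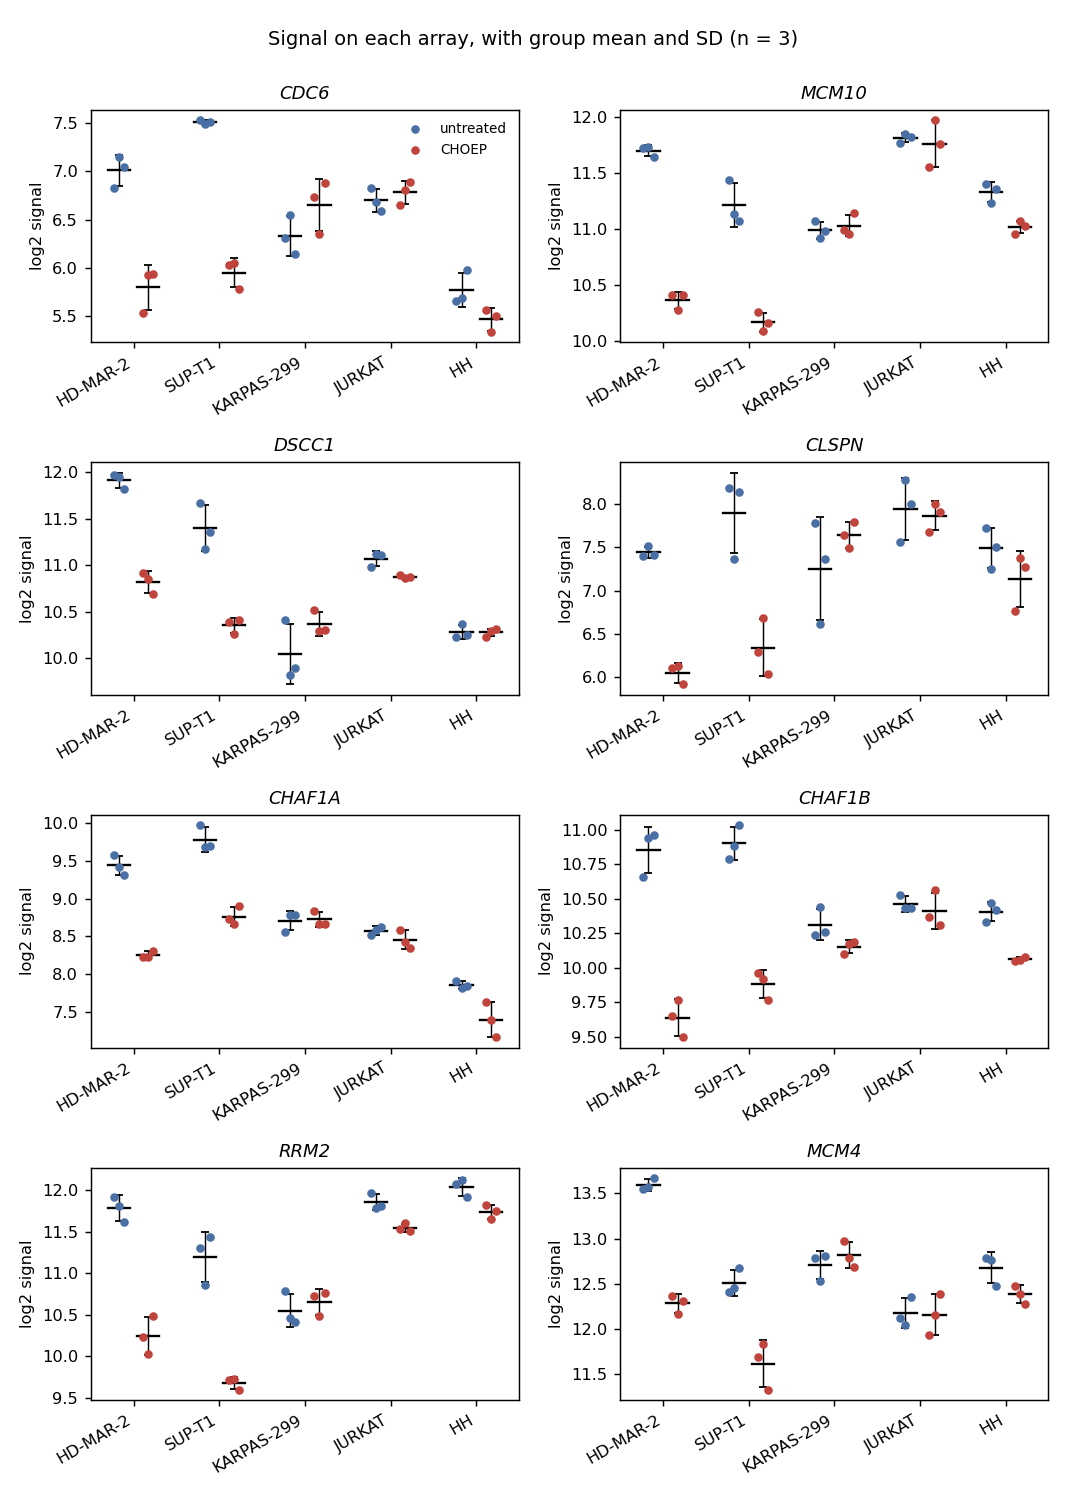
Log2 signal (vertical axis, a separate scale in each panel) on each array of the 7 genes called lower in both HD-MAR-2 and SUP-T1, and of MCM4, with untreated cultures in blue, treated cultures in red, and black bars for the mean and SD of 3 arrays. The treated points of HD-MAR-2 and SUP-T1 lie below the untreated points in every panel, RRM2 for example at 10.03 to 10.48 against 11.62 to 11.92 in HD-MAR-2.

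More than 1 detected probe was available for 14 of the genes, with 17 further probes. Of these, 16 fell in HD-MAR-2, all but the second POLD3 probe, and 15 in SUP-T1, all but the third RFC3 probe (adjusted p = 0.896) and the second PRIM1 probe (adjusted p = 0.0604). The second MCM4 probe fell by 1.78 in HD-MAR-2 (adjusted p = 2.23e-09) and the second MCM10 probe fell by 1.41 (adjusted p = 3.86e-09). With all probes of a gene averaged, 39 members fell in SUP-T1 and 41 in HD-MAR-2.

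The falls in HD-MAR-2 and SUP-T1 were compared directly. Of the 44 genes 5 differed, a share close to the 11.4% of all genes that did. The log2 fold change of CDT1 was higher in HD-MAR-2 than in SUP-T1 by 0.94 (standard error 0.28, adjusted p = 0.0349). For the other 4 the log2 fold change was lower in HD-MAR-2 than in SUP-T1. The difference was -0.78 for RPA3 (adjusted p = 0.00177), -0.64 for MCM5 (adjusted p = 0.012), -0.51 for MCM2 (adjusted p = 0.0389) and -0.47 for POLE2 (adjusted p = 0.0132). Of these, RPA3 and MCM5 did not pass in SUP-T1 itself. RPA3 was 13.91, 13.56 and 13.41 untreated and 12.88, 12.89 and 12.85 treated in HD-MAR-2, and 14.14, 13.80 and 13.74 and 13.79, 13.84 and 14.13 in SUP-T1, where the groups overlapped. MCM5 was 12.59, 12.43 and 12.38 and 11.68, 11.48 and 11.64 in HD-MAR-2, and 12.21, 12.55 and 12.11 and 12.18, 12.01 and 12.00 in SUP-T1. The count ranged from 2 to 7 when 1 array was left out, with 3, 2 and 3 genes without the treated HD-MAR-2 replicates 1, 2 and 3, 3 without its untreated replicate 1 and 3 without treated SUP-T1 replicate 1. It was 2 with median scaling. For the other 39 genes no difference passed, which does not show that they fell equally. Across the 44 genes the log2 fold changes in the 2 lines had a Pearson correlation of 0.53 (0.48 across all genes), given as a description, since genes are not independent replicates.

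The other genes of replication, nucleotide supply and chromatin replication were examined as 3 lists, drawn up with earlier results of these data known. Over all genes 20.1% fell and 17.8% rose on average over the lines. Of 29 other replication factors 14 fell and 3 rose on average, 17 fell and 1 rose in HD-MAR-2 (median -0.49), and 13 fell and 1 rose in SUP-T1 (median -0.30). In HH 7 of them fell and 2 rose, where 9.64% of all genes fell and 9.89% rose. TICRR, a factor that helps load CDC45, fell by 0.92 (standard error 0.17, adjusted p = 0.000248) in HD-MAR-2, by 1.10 (standard error 0.17, adjusted p = 3.42e-05) in SUP-T1 and by 0.62 (standard error 0.17, adjusted p = 0.0129) in HH. Its partner MTBP fell in the same lines, by 0.97, 0.76 and 0.63. MCMBP, a chaperone of MCM subunits, fell by 0.68, 0.76 and 0.79. POLD4, the smallest subunit of polymerase delta, rose against this direction, by 0.94 (standard error 0.18, adjusted p = 0.000298) in HD-MAR-2, 1.24 (standard error 0.18, adjusted p = 1.24e-05) in SUP-T1 and 0.53 (standard error 0.18, adjusted p = 0.0423) in HH. The large subunits RPA1 and RFC1 had averages of -0.12 and -0.08 (adjusted p = 0.0246 and 0.216). The average of RFC1 joins opposite changes. It fell by 0.35 in HD-MAR-2 (adjusted p = 0.0205) and by 0.38 in SUP-T1 (adjusted p = 0.0144), and rose by 0.39 in HH (adjusted p = 0.0156).

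Of 21 other nucleotide supply enzymes 11 fell and 1 rose on average, 12 fell in HD-MAR-2 and 11 fell and 1 rose in SUP-T1. In HH 7 of these enzymes fell and 1 rose. The purine synthesis enzymes PAICS and PPAT fell in HD-MAR-2, by 0.96 and 0.91, in SUP-T1, by 0.56 and 0.56, and in HH, by 0.46 and 0.51. DUT, which removes dUTP, fell by 1.28 (standard error 0.11, adjusted p = 2.09e-09) in SUP-T1, the only gene of this list called there, and by 0.53 (standard error 0.11, adjusted p = 0.000561) in HD-MAR-2. GMPS, an enzyme of guanine nucleotide synthesis, fell by 0.93 and 0.81 in HD-MAR-2 and SUP-T1. RRM2B, the small reductase subunit induced by p53, rose by 0.55 (standard error 0.19, adjusted p = 0.0373) in SUP-T1 and fell by 0.62 (standard error 0.19, adjusted p = 0.0252) in HH, unlike RRM2. Of 13 other chromatin replication factors 8 fell and none rose on average, 7 fell in each of HD-MAR-2 and SUP-T1, and 2 fell in HH. Those that fell on average included MMS22L (average -0.37, adjusted p = 2.03e-05), a factor of stalled forks, SUPT16H (average -0.33, adjusted p = 4.23e-06), a subunit of the histone chaperone FACT, and ASF1A (average -0.24, adjusted p = 0.00765), which hands histones to chromatin assembly factor 1 and fell in HH, by 0.79. Its paralogue ASF1B had an average of -0.22 (adjusted p = 0.139) and fell in SUP-T1, by 0.74.

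Untreated levels differed between the lines for 43 of the 44 genes by an F test, all but GINS1 (adjusted p = 0.0956), where 95.5% of all genes differed. HD-MAR-2 had the highest level for 20 members and SUP-T1 for 15, while 20.1% and 23.9% of all genes were highest there. The genes fell with CHOEP in these lines, but the untreated arrays enter both comparisons, so that they are not independent. The lowest level was in HH for 20 members and in KARPAS-299 for 15, where 23.7% and 25.1% of all genes were lowest. Untreated HD-MAR-2 was higher than untreated HH for 34 members and lower for 2, with a median difference of 0.73 (0.06 over all genes), where 37.8% of all genes were higher and 30.6% lower. It was higher than KARPAS-299 for 34 and lower for 5, with a median of 0.69, against 39.6% and 31.4% of all genes. Between HD-MAR-2 and SUP-T1 18 members were higher and 10 lower in the former, with a median of 0.05, against 29.2% and 29.9% of all genes. In JURKAT no member fell with CHOEP. Untreated JURKAT was higher than HH for 28 members and lower for 4 (36.6% and 30.7% of all genes). HD-MAR-2 was higher than JURKAT for 25 members and lower for 4 (34.8% and 30% of all genes). SUP-T1 was higher than JURKAT for 23 and lower for 9 (35.2% and 29.3% of all genes). Between neighbours in the order of levels, 80 of 176 differences of the members passed. The same count was not made over all genes, so that it cannot be read as a trait of the members. Line and chip cannot be told apart in these comparisons. With CHOEP, the array medians of HD-MAR-2 (10.79 to 10.87) lay below the untreated ones of KARPAS-299 and JURKAT and above those of HH (10.64 to 10.67).

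TK1 had the widest range, 3.50 log2 units, and with RFC2 and PRIM2 was one of 3 genes lowest in HD-MAR-2. Its untreated levels were 11.80, 11.86 and 11.79 in KARPAS-299, followed by 10.54, 10.38 and 10.16 in JURKAT and 9.97, 9.87 and 9.95 in HH. They were 8.72, 8.87 and 8.88 in SUP-T1 and 8.04, 8.43 and 8.48 in HD-MAR-2. Every step in this order passed. PRIM2 spanned 2.61 units, from 9.53, 8.99 and 8.73 in JURKAT to 5.75, 6.95 and 6.72 in HD-MAR-2, where it was detected on 2 of 3 arrays, and only its step from KARPAS-299 to HH did not pass (adjusted p = 0.663). GINS2 spanned 2.41 units, with SUP-T1 highest at 13.85, 13.94 and 13.97 and HH lowest at 11.63, 11.49 and 11.40, and JURKAT and HD-MAR-2 did not differ (adjusted p = 0.903). POLD3 spanned 2.27 units, from 9.81, 9.75 and 9.74 in HD-MAR-2 to 7.35, 7.43 and 7.72 in KARPAS-299, with SUP-T1, HH and JURKAT between them and their neighbouring steps not passing. POLA1 spanned 2.10 units, from 11.72, 11.76 and 11.92 in HD-MAR-2 to 9.67, 9.79 and 9.64 in HH, and neither the step from SUP-T1 to KARPAS-299 nor that from KARPAS-299 to JURKAT passed. RRM2 was highest in HH, JURKAT and HD-MAR-2, which did not differ as neighbours, and lowest in KARPAS-299 at 10.78, 10.46 and 10.41. The brightest ORC6 probe, which lay near the top of the measured range, spanned 0.43 units. None of its neighbouring steps passed, while its ends, HD-MAR-2 and JURKAT, differed (adjusted p = 0.00463).

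**Figure D4:**
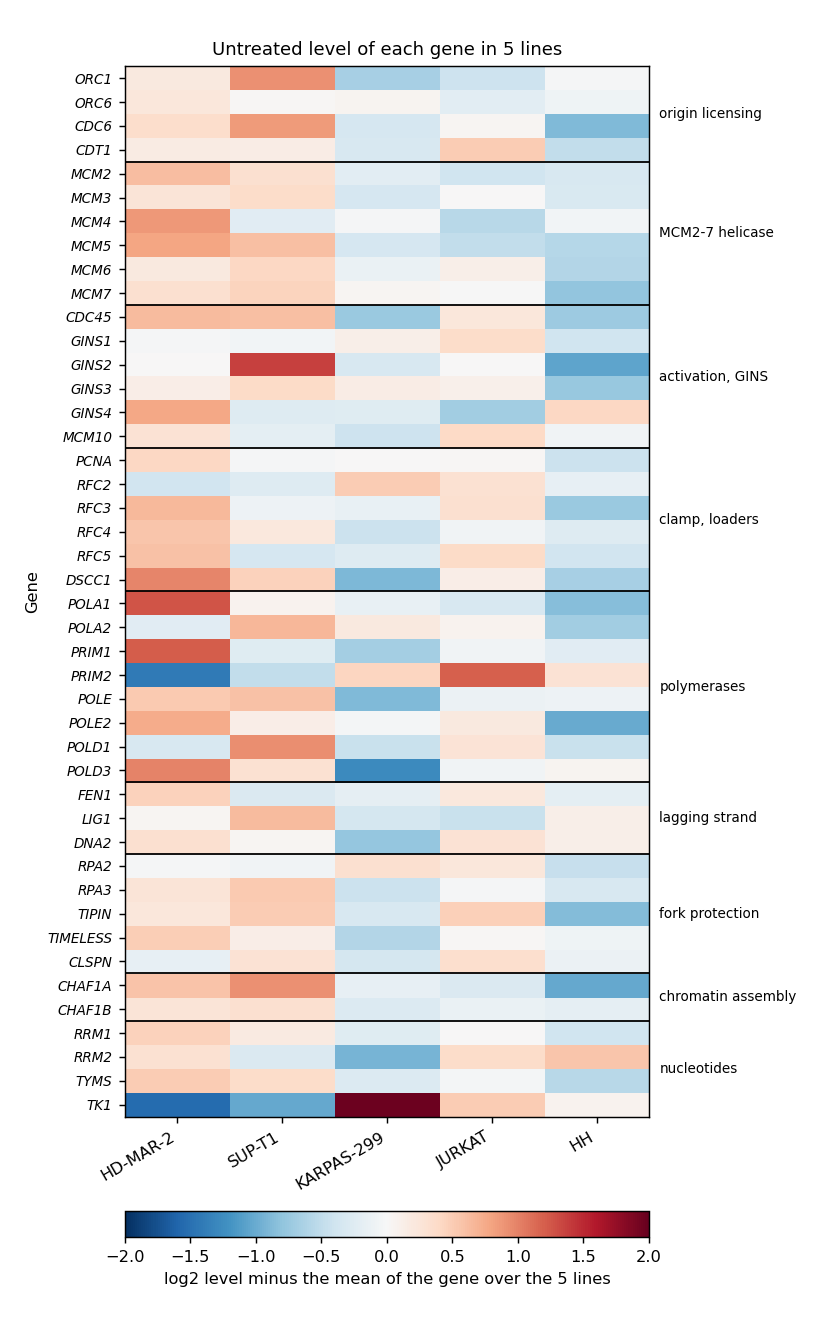
Untreated level of each of the 44 genes (rows, by sub-complex) in the 5 lines (columns), as the mean log2 signal of 3 arrays minus the mean of that gene over the lines, with red higher and blue lower. Most rows are red in HD-MAR-2 or SUP-T1 and blue in HH or KARPAS-299, and TK1, with a range of 3.50, shows the reverse.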

How the data were processed

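Transcript levels were compared in cultures of 5 malignant T-cell lines, untreated or exposed to CHOEP for 24 h, with 3 cultures per group and 30 arrays. Groups were taken from the sample labels. The authors deposited the signal intensity of each probe, not normalised and not in log form, and beside it the detection p-value that BeadStudio (version 3 in the submitters' processing notes) computes against negative control probes. A table of log2 values, which the authors deposited as well after lumi processing with robust spline normalisation, served as an alternative. Probes were named from the platform annotation. Of 47323 probes with values, 30113 had 1 symbol, 8 had several and genes are named only from the former.

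Intensities were background-corrected, quantile normalised and log2-transformed by the neqc function (limma 3.58.1, R 4.3.3, offset 16), which inferred the background from the detection p-values. A probe was kept if its detection p was under 0.01 on 3 or more arrays. This left 22652 probes, which included a probe of each of the 44 genes (61 of their 62 probes). Detection was on all 30 arrays for 40 genes, on 29 for PRIM2, 27 for CLSPN, 22 for GINS1 and 16 for CDC6. A linear model with 1 mean per group and 20 residual degrees of freedom, moderated by empirical Bayes, gave the effect of CHOEP in each line, its average over the lines, F tests of its difference between lines and of untreated levels, and the difference between HD-MAR-2 and SUP-T1. Benjamini-Hochberg adjustment ran over every kept probe. Where a gene was detected on no array of a group, a bound is given, taking as the level of that group the higher, per array, of the lowest detected signal and the signal of the probe itself.

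The members and the other gene lists were chosen with earlier results of these data known. Values on every array are given for genes called in at least 2 lines and for the gene of each sub-complex with the largest average fall. Others are named for the smallest average change of a sub-complex, a difference between HD-MAR-2 and SUP-T1, the 5 widest untreated ranges, or the largest average changes of the other lists. Those named beyond this rule, to account for each member, were chosen after their values were seen.

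Precision is limited by the 3 arrays per group. Cultures were not paired by replicate number, since residuals of same-numbered arrays of a line had a correlation over 0.1 in 3 of 15 cases. No arrays were duplicates (highest correlation 0.9962). The fit was tested on simulated data. Alternatives were the authors' values, other normalisations and filters, all probes of a gene, a replicate block, an intensity trend with robust variance, each line fitted alone, no fold threshold and each array left out in turn.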

Additional observations from a re-analysis of the deposited data

Results flagged for a closer look

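Of the 44 genes 41 responded to CHOEP unequally in the 5 lines, by an F test of the difference with an adjusted p under 0.05, as it did for 35.1% of all genes. The range over the lines of the log2 fold changes with CHOEP among the licensing genes was 0.85 for ORC1, 1.88 for CDC6 and 1.05 for CDT1. For the helicase subunits it was 1.39 for MCM2, 0.96 for MCM3, 1.42 for MCM4, 1.12 for MCM5, 0.98 for MCM6 and 0.82 for MCM7. Among the helicase activators the range was 0.84 for CDC45, 1.12 for GINS2, 0.93 for GINS3, 0.83 for GINS4 and 1.37 for MCM10. The clamp and its loaders spanned 0.88 for PCNA, 1.03 for RFC2, 1.13 for RFC3, 1.29 for RFC4, 0.71 for RFC5 and 1.42 for DSCC1. Polymerases and primase spanned 0.81 for POLA1, 0.96 for POLA2, 0.82 for PRIM1, 1.13 for POLE, 1.14 for POLE2, 0.91 for POLD1 and 1.34 for POLD3. Genes of the lagging strand spanned 0.95 for FEN1, 1.08 for LIG1 and 0.98 for DNA2. At the fork the spans were 0.61 for RPA2, 0.87 for RPA3, 1.35 for TIPIN, 0.75 for TIMELESS and 1.95 for CLSPN. Chromatin assembly factor 1 spanned 1.20 for CHAF1A and 1.16 for CHAF1B. The nucleotide enzymes spanned 0.74 for RRM1, 1.64 for RRM2, 0.73 for TYMS and 0.84 for TK1. CLSPN and CDC6 had the widest ranges, each with a fall in SUP-T1 at one end and an increase in KARPAS-299 that did not pass at the other. Groups of 3 arrays are too small for a test of single outlying arrays, which was not done.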

How the results depend on the processing

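No fall that had passed changed its direction under an alternative run, but calls were lost. With each line fitted alone 38 members fell in HD-MAR-2 and only 29 in SUP-T1. With the authors' normalised values 9 members were called in HD-MAR-2, only 2 in SUP-T1 and 1 in both. Quantile normalisation without background correction gave 9, 1 and 1, while members that fell stayed at 40 and 38. With no fold threshold 38 members were called in SUP-T1, 5 in HH and 40 in HD-MAR-2, and 36 in at least 2 lines. Member medians moved by more than their replicate spread in HD-MAR-2 (-0.76 with the authors' values and without background correction, -0.74 with median scaling restricted to probes detected on every array) and in SUP-T1 (-0.66 with the authors' values and without background correction, -0.79 with median scaling, -0.67 with it restricted to those probes). Median scaling gave -0.03 in KARPAS-299, -0.17 in HH and -0.37 on average, and scaling restricted to those probes 0.01 and -0.14 in KARPAS-299 and HH. The latter moved the median of all genes to 0.12 in SUP-T1 and 0.11 in HD-MAR-2, so that the members lay further below it than their own medians say. In HH 11 members fell with all probes averaged and 8 with the line fitted alone. The difference between HD-MAR-2 and SUP-T1 passed for 2 members with median scaling. The cause of these shifts was not tested.

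With 1 array left out, 6 to 8 members were called in SUP-T1, 13 to 15 in HD-MAR-2, 5 to 7 in both, 2 to 7 fell in HH, 0 to 1 rose in KARPAS-299 (1 without untreated replicate 1) and 2 to 7 differed between HD-MAR-2 and SUP-T1. Medians ran from -0.72 to -0.65 in SUP-T1, -0.86 to -0.79 in HD-MAR-2, 0.01 to 0.06 in KARPAS-299 and -0.14 to -0.07 in HH. With a replicate block, although the numbers do not pair cultures, 37 members fell in SUP-T1, 40 in HD-MAR-2 and 37 on average, 8 and 14 were called in those lines, and the block moved no count by over 1.5 times.

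Signs changed only for values that had not passed. ORC6 on average became 0.00 with the authors' values, 0.07 and 0.13 under the 2 median scalings, and ran from -0.04 to 0.01 with an array left out. ORC6 in HD-MAR-2 became 0.12 and 0.18 under the median scalings. In SUP-T1 it became 0.00 with the authors' values, 0.16 and 0.28 under the median scalings, and ran from -0.15 to 0.08 with an array left out. CDT1 in HD-MAR-2 became 0.16 without untreated replicate 2, and PRIM2 there ran from -0.24 without untreated replicate 1 to 0.36 without untreated replicate 2. RPA3 in SUP-T1 became -0.03 with the authors' values, and ran from -0.08 to 0.15 with an array left out. With the replicate block MCM6 (-0.17, adjusted p = 0.0503) and RPA3 (-0.13, adjusted p = 0.0782) did not pass on average, nor did MCM6 (adjusted p = 0.099) and POLD1 (adjusted p = 0.0543) in SUP-T1 and MCM10 in HH (adjusted p = 0.0595), while PRIM2 passed in SUP-T1 (-0.58, adjusted p = 0.0213). Other averages were also close to the threshold. Leaving out 1 of the 30 arrays ended the call of CDT1 in 14 cases (adjusted p up to 0.0709) and that of RPA3 in 16 (up to 0.0735). Without the detection filter CDT1 (adjusted p = 0.0725) and RPA3 (adjusted p = 0.053) did not pass, nor did GINS1 (adjusted p = 0.0514) and RPA3 (adjusted p = 0.139) under the restricted median scaling. ORC6 passed with its probes averaged (-0.17, adjusted p = 0.0101), and RPA2 (adjusted p = 0.0379) and TIMELESS (adjusted p = 0.0336) with median scaling. Signals near the detection limit, as of CDC6, CLSPN and GINS1, and near the top of the range, as of ORC6, limit what their probes can show.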
